A study of Homo sapiens with 31 samples.

Results

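Circular RNAs (circRNAs) of human retinal cultures kept in IGF-1 were compared between day 45 and day 90 of differentiation. The cells were H9, an established human embryonic stem cell line, at passages 34 to 45 by the sample labels (the study's methods give a narrower range), grown as embryoid bodies along a retinal differentiation protocol. The treated arm received IGF-1, an insulin-like growth factor, at 5 ng/ml until day 37 and at 10 ng/ml afterwards. All 3 libraries of day 45 with IGF-1 and all 3 of day 90 with IGF-1 were taken, which makes 6 of the 15 RNA-seq libraries. The untreated libraries of the same days (3 each) followed the same protocol without the added factor and serve as the other arm. Whole cultures were harvested without picking embryoid bodies, so every library mixes retinal and other cells, and RNA integrity numbers ran from 7.6 to 9.1 on day 45 and from 7.1 to 8.9 on day 90. Cultures were differentiated in triplicate and are called biological replicates, so p-values measure the spread between cultures of 1 line.

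A circRNA forms when the 5′ splice site at the end of an exon (the donor) is joined back to the 3′ splice site at the start of the same or an earlier exon (the acceptor), and the closed loop resists exonucleases. A read across that junction is a back-splice read. In the retina, photoreceptors are born over weeks from dividing progenitors, and their light-sensing outer segment is built from a modified cilium. Many genes whose loss causes retinal degeneration are used there, EYS among them.

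The junctions of the circRNAs that the results turn on are shown here because the junction is the only part of the molecule that the counts measure. Each line gives the last 15 bases of the donor exon in lower case and the first 15 bases of the acceptor exon in capitals, 5′ to 3′ on the RNA strand, from the GRCh37 (hg19) genome. A name such as circRAPGEF5:E5-E2 gives the donor exon and then the acceptor exon of the transcript used for detection.
circMB:E2-E2: gtgaagtacctggagGCTCTTTAAGGGTCA
circFMN1:E4-E4: accagtcacctccagGCAGTCTCATTGCTG
circRAPGEF5:E5-E2: tggcatctgtgaactACTCTATCAAGAAGA
circTULP1:E12-E11: atccggccccgaaatGTCCAACCTCCTGGG
circMCM10:E4-E3: aggcttcacctccagAGGAATTAAGGAATT
circRMST:E12-E6: gaatggcttcatgagATTCTCAGGATGATG
In these 6 the genome has AG just before the acceptor exon and GT just after the donor exon, the bases of ordinary splice sites. The spans are chr22:36006931-36007153 for circMB:E2-E2 (minus strand, a single coding exon of 223 bases) and chr15:33445249-33447246 for circFMN1:E4-E4 (minus strand, a single exon of 1998 bases that holds the start codon). circRAPGEF5:E5-E2 lies at chr7:22347958-22357656 (minus strand, 4 coding exons) and circTULP1:E12-E11 at chr6:35471336-35471625 (minus strand, 2 coding exons). circMCM10:E4-E3 lies at chr10:13214376-13214765 (plus strand, 2 coding exons) and circRMST:E12-E6 at chr12:97886239-97954825 (plus strand, 7 exons of a long non-coding RNA).

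The 6 libraries held 60537, 93156 and 82472 back-splice reads on day 45 and 88415, 73481 and 84646 on day 90, in the order of replicates 1, 2 and 3, which is kept throughout. They came from 38847 distinct circRNAs of the 55371 in the whole list. Replicate 1 of day 45 stood apart before any comparison of days was made. Over 1736 well-covered circRNAs, its log2 levels had a Pearson r between 0.77 and 0.81 with each of the other 5 libraries, while the pairs among those 5 had r between 0.85 and 0.89, within and between days alike. These values describe libraries that share genes and depth, and carry no test. Replicate 1 was also the shallowest of the 6 and had the lowest share of high-quality bases. Several results that rest on it are given with and without it, but not all.

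The overall output of circRNAs was similar on both days. The level per library, in RPM (the back-splice count scaled in the usual way to all sequenced reads of the library), was 573, 696 and 588 on day 45 and 668, 474 and 580.0 on day 90, and the groups overlapped. Their means were 619 ± 67.3 and 574 ± 97.1 (SD, n = 3), a ratio of 0.927 (two-sided exact permutation test, p = 0.5, where 3 against 3 cannot go below 0.1). Drawn down to 60537 back-splice reads each, the libraries held 13290, 14378 and 14087 distinct circRNAs on day 45 and 13897, 14117 and 13846 on day 90. The means were 13918 ± 563 and 13953 ± 144, and the groups again overlapped (exact permutation test, p = 0.9).

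The structure of the circRNAs also overlapped between the days. The median genomic distance from acceptor to donor was 8224, 8728 and 8352 bases on day 45 and 8932, 9437 and 8559 bases on day 90, with day 90 replicate 3 below day 45 replicate 2 (exact permutation test, p = 0.2). The mean number of exons was 4.41 ± 0.0494 and 4.49 ± 0.110 (exact permutation test, p = 0.4). Non-coding genes gave 3.31% ± 0.192 of the assigned back-splice reads on day 45 and 3.27% ± 0.440 on day 90 (exact permutation test, p = 1), most of them from RMST. The 100 most abundant circRNAs of each library took 22.1% ± 0.516 and 21.9% ± 0.104 of its reads (exact permutation test, p = 0.5).

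Both days shared most of what was abundant. 17427 circRNAs had a read on both days and held 93.1% of the reads of the 6 libraries, and 4775 were in all 6 libraries. Of the 10504 found on day 45 alone, 7176 had a single read, as had 7295 of the 10916 found on day 90 alone. Of the 38847 circRNAs with a read in the 6 libraries, 205 were in all 3 of day 90 and none of day 45, and 185 showed the opposite. Of 7074 host genes (the genes whose exons form the circRNAs) with a read, 44 had reads in all 3 libraries of day 90 and none on day 45. For 20 host genes it was the opposite. MB, with 33 reads, was in the first set, and WASF1 (13 reads) and FOXN3 (12 reads) led the second.

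For each circRNA with at least 10 reads over the 15 libraries, the days were compared by the quasi-likelihood test of edgeR, with Benjamini-Hochberg adjustment over the whole set. Of 12498 circRNAs, 2 passed an adjusted p of 0.05, which is 0.016%. At an unadjusted p under 0.05 there were 571, or 4.57%, of which 247 were higher (1.98%) and 324 lower (2.59%) on day 90. DESeq2's Wald test called 0, with 167 at an unadjusted p under 0.05. Summed by host gene, 4 of 4933 genes passed, which is 0.0811%, and 4.26% had an unadjusted p under 0.05. MB and FMN1 were among the 3 that rose, and ZFPM2 fell through 1 library. DESeq2's Wald test called 0 host genes, with 72 at an unadjusted p under 0.05. The 95% interval of the change lay within 2-fold either way for 242 circRNAs and 428 host genes, and for the rest a change of that size was not excluded by the interval. In whole cultures, fewer cells of a type and less circRNA per cell cannot be told apart.

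MB, which encodes the oxygen-binding protein myoglobin of muscle, formed a single circRNA here. circMB:E2-E2 had 0, 0 and 0 reads on day 45 and 9, 7 and 17 on day 90. Every library of day 90 lay above every library of day 45, as was the case for 3.2% of all host genes tested. The day 90 mean was 0.0765 ± 0.0364 RPM (SD, n = 3), at least 9.64-fold higher than the floor of 3 reads over the 3 libraries of day 45 (edgeR quasi-likelihood test, Benjamini-Hochberg adjusted p = 0.0333 among circRNAs and 0.0124 among host genes). The circRNA passed in none of the 6 fits that left out 1 library, and the host gene passed in 2 of them, those without day 90 replicate 1 or 2. The log2 change ran from 5.96 to 6.66 in them, and without day 45 replicate 1 the adjusted p was 0.446 for the circRNA and 0.213 for the gene. DESeq2's Wald test gave an unadjusted p of 0.226. In untreated cultures only day 90 replicate 3 had reads, 11 in all. A list of 20 other muscle markers summed to 0.0189 to 0.112 RPM on day 45 and 0.0756 to 0.219 on day 90, with overlap. Of them 11, MYOG, DES and CKM included, had no read in the 6 libraries, and 0 of 4 tested passed. Their part in the change of MB was not tested.

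FMN1, which encodes formin 1, an actin-nucleating protein, had 0, 11 and 29 reads on day 45 and 63, 64 and 36 on day 90. The lowest library of day 90 stood above the highest of day 45. The means were 0.0964 ± 0.104 and 0.379 ± 0.118 RPM (log2 change 1.90, SE 0.45, edgeR adjusted p = 0.0296). Without day 45 replicate 1, the library at 0, the log2 change was 1.38 and the adjusted p was 1. Among the fits that left out 1 library, FMN1 passed only without day 45 replicate 3 or day 90 replicate 3. circFMN1:E4-E4 gave 159 of the 203 reads of FMN1, with 0, 10 and 25 on day 45 and 45, 52 and 27 on day 90. Untreated libraries also did not overlap, with 7, 16 and 20 reads on day 45 and 37, 116 and 120 on day 90.

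ZFPM2, which encodes a cofactor of GATA transcription factors, had 161, 17 and 6 reads on day 45 and 12, 10 and 18 on day 90. The groups overlapped, and day 45 replicate 1 alone was high. The log2 change was -2.57 (SE 0.45, edgeR adjusted p = 2.74e-05), and without that library it was 0.13 with an adjusted p of 1. circZFPM2:E3-E2 followed the same pattern, with 147, 13 and 6 reads on day 45 and 11, 9 and 17 on day 90 (log2 change -2.53, adjusted p = 0.00108, against 0.30 without that library). Replicate 1 of untreated day 45 was high too, at 219 reads beside 7 and 17.

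VCAN, which encodes the matrix proteoglycan versican, had 96, 13 and 21 reads on day 45 and 16, 20 and 11 on day 90. Replicate 1 of day 45 was again the high one, and the change did not pass (log2 -1.79, adjusted p = 0.0844; -0.19 without replicate 1). FIRRE, a long non-coding RNA of the X chromosome, was low in the same library, at 14 reads beside 154 and 183, with 133, 123 and 98 on day 90 (log2 change -0.08, SE 0.37). Replicate 1 of untreated day 45 was low too. Its main circRNA, circFIRRE:E10-E5, had 18, 173 and 171 reads on untreated day 45, beside 10, 131 and 161 with IGF-1.

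**Figure D1:**
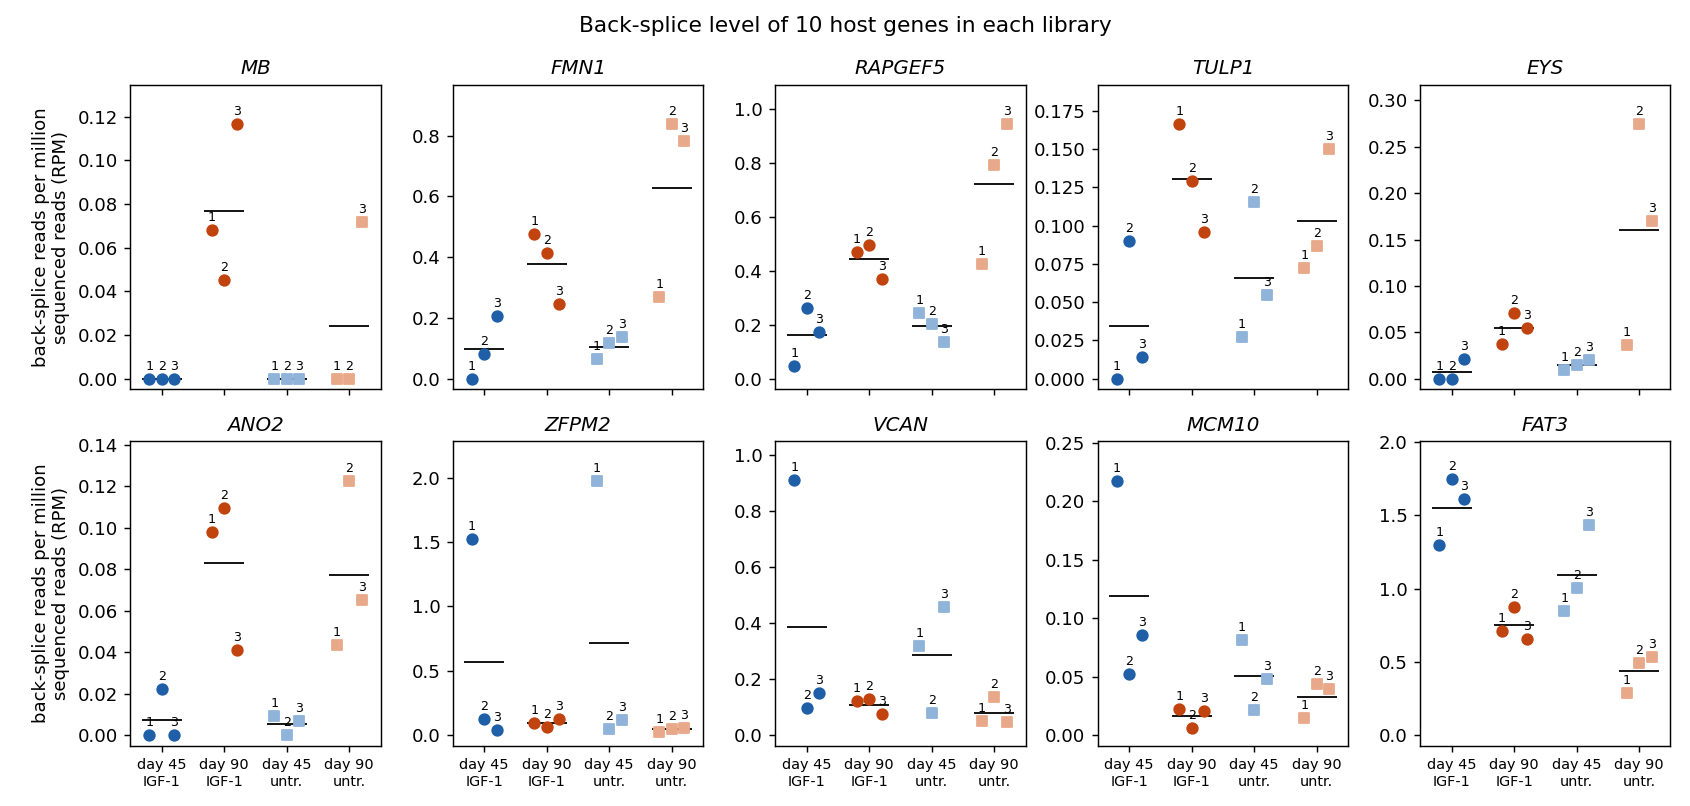
Back-splice level in RPM (y axis, linear, 1 scale per panel) of 10 host genes in each library of day 45 and day 90, with IGF-1 (circles) and untreated (squares). Numbers give the replicate and bars the mean of 3. MB is at 0 in the 3 libraries of day 45 with IGF-1, and replicate 1 of day 45 is the high library for ZFPM2 in both arms.

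Genes of photoreceptors and of retinal disease were mostly higher on day 90. Of 48 listed genes, 18 had a back-splice read in the 6 libraries and 13 were tested. Of these, 1 passed. At an unadjusted p under 0.05 there were 4 higher and 0 lower, where the shares over all host genes were 1.72% higher and 2.53% lower. The median log2 change of the 13 was 1.44, beside -0.14 over all host genes tested, and 11 were above 0, beside 40.3% of all host genes. The libraries did not overlap for 5 members, all higher, EYS, TULP1, CRB1 and IMPG2 among them. Over all host genes, 3.2% lay higher and 6.57% lower without overlap. The summed level was 0.492, 0.650 and 0.642 RPM on day 45 and 1.09, 1.06 and 0.932 on day 90, without overlap. Without day 45 replicate 1, an alternative chosen after seeing the data, the median was 1.32 and 3 were higher at an unadjusted p under 0.05. The list holds genes chosen with earlier results of these data known.

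Within that list, TULP1, which encodes a tubby-like protein of photoreceptor cilia, had 0, 12 and 2 reads on day 45 and 22, 20 and 14 on day 90. The groups did not overlap, and the change did not pass (log2 1.82, SE 0.61, adjusted p = 0.58). Without day 45 replicate 2, which held 12 of the 14 reads of day 45, it passed (log2 3.88, adjusted p = 0.0409). That fit takes out most reads of day 45. TULP1 passed in no other fit that left out 1 library, and the log2 change ran from 1.32 to 3.88 in these fits. Nearly all of its reads, 69 of 70, came from circTULP1:E12-E11. EYS, which encodes an extracellular matrix protein of photoreceptors, had 0, 0 and 3 reads on day 45 and 5, 11 and 8 on day 90 (log2 2.68, SE 0.89, adjusted p = 0.58). Those reads were divided among 7 circRNAs. CDH23, a cadherin, had 12, 16 and 6 reads and then 23, 23 and 14, and the groups overlapped.

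The remaining members varied. CERKL, a retinal disease gene, had 0, 0 and 6 reads on day 45 and 15, 1 and 9 on day 90, with 1 low library on day 90. CRB1, a polarity protein of photoreceptors and Müller glia, had 3, 3 and 0 reads and then 5, 7 and 5. IMPG2, a proteoglycan of the matrix around photoreceptors, had 1, 0 and 3 and then 3, 5 and 5, so the nearest libraries of each day had 3 reads. RIMS1, a presynaptic active zone protein and the list's most abundant member, overlapped at 32, 43 and 57 reads and then 38, 60 and 40 (log2 -0.12, SE 0.41). RPGR, a regulator of photoreceptor cilia, had 4, 3 and 6 and then 3, 4 and 2. The transcription factors and phototransduction genes that define the cell type, CRX, NRL and RCVRN among them, had no back-splice read in the 6 libraries, which does not bear on their linear transcripts.

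Outside the list, 2 more photoreceptor genes can be named. ANO2, a calcium-activated chloride channel of photoreceptor terminals, had 0, 3 and 0 reads on day 45 and 13, 17 and 6 on day 90 (log2 3.26, SE 0.90, adjusted p = 0.203), in 10 circRNAs. Without day 45 replicate 2, the only library of that day with reads, it passed (log2 6.52, adjusted p = 0.0409). ANO2 passed in no other fit that left out 1 library, and the log2 change ran from 2.68 to 6.52 in these fits. PDC, which encodes phosducin, a regulator of transducin in rods, had 0, 0 and 0 and then 7, 0 and 4, with 1 library of day 90 at 0 (at least 3.21-fold higher than the floor). Untreated cultures had 0, 0 and 0 and then 4, 5 and 8 reads of PDC.

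Genes of dividing cells were mostly lower on day 90. Of 30 listed genes, 29 had reads in the 6 libraries and 25 were tested, 0 passed, and at an unadjusted p under 0.05 there were 2 lower and 0 higher, beside 2.53% and 1.72% of all host genes. A log2 change above 0 was found for 2 of 25, beside 40.3% of all host genes, and the median was -0.66, beside -0.14. The summed level was 2.35, 1.49 and 1.57 RPM on day 45 and 1.35, 1.05 and 1.13 on day 90. The groups did not overlap, and replicate 1 of day 45 was the highest. Without it the median was -0.42, 6 of 25 were above 0 and 0 were lower at an unadjusted p under 0.05.

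The 2 lower members were DTL, a subunit of a ubiquitin ligase that acts in replication licensing, with 19, 15 and 10 reads on day 45 and 10, 6 and 2 on day 90, and KIF14, a mitotic kinesin, with 15, 7 and 11 and then 4, 5 and 5. Neither passed after adjustment. KIF14 did not overlap between the days, as 6.57% of host genes did not in that direction. TOP2A, a DNA topoisomerase of dividing cells, had 12, 9 and 12 and then 5, 6 and 5 without overlap. BRIP1, a DNA helicase, was 34, 10 and 35 and then 21, 20 and 19, with overlap. MCM10, a replication initiation factor outside the list, had 23, 7 and 12 reads and then 3, 1 and 3 (log2 -2.77, SE 0.73, adjusted p = 0.138). Replicate 1 of day 45 was again the highest, and without 1 library the log2 change of MCM10 ran from -3.13 to -2.03. circMCM10:E4-E3 held 29 of its 49 reads.

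**Figure D2:**
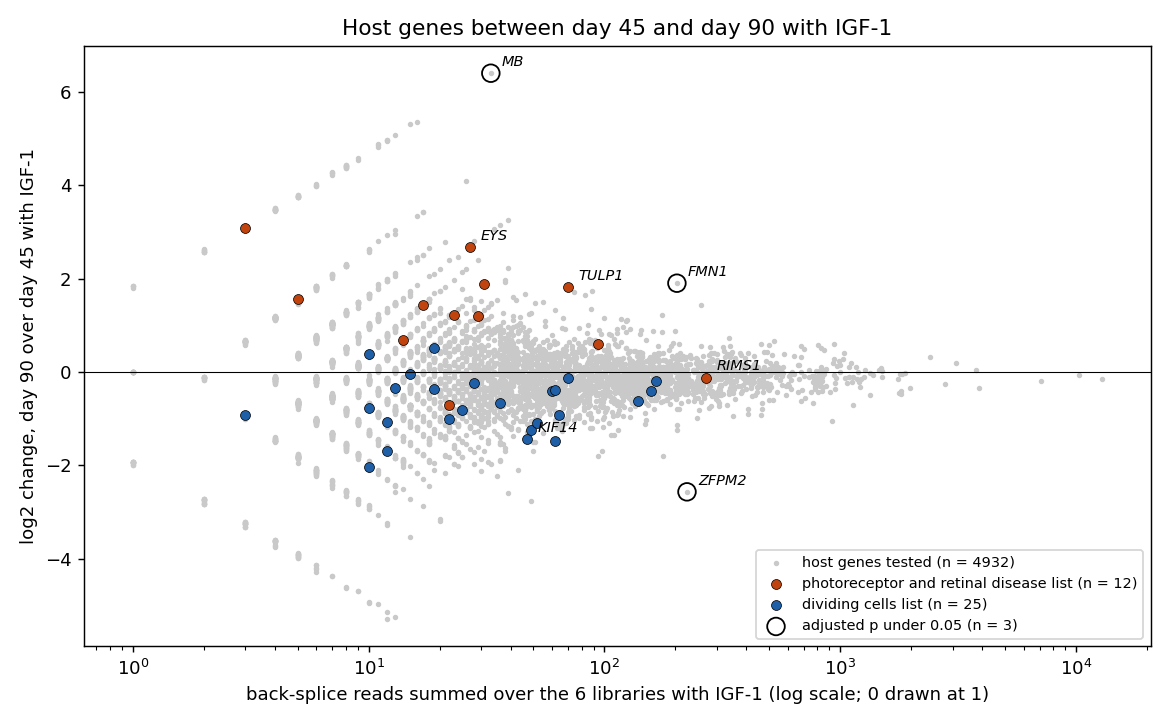
Log2 change of day 90 over day 45 with IGF-1 (y axis) against back-splice reads summed over the 6 libraries (x axis, log scale) for 4932 of the host genes tested. Red points are 12 genes of the photoreceptor list, 10 of them above 0, blue points 25 of the dividing cell list, 2 of them above 0, and rings mark MB, FMN1 and ZFPM2, which passed.

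In the other cell type lists no gene passed. Neuronal genes summed to 0.957 ± 0.110 RPM on day 45 and 0.938 ± 0.241 on day 90. Of 17 tested, 0 passed and 2 were lower at an unadjusted p under 0.05 (2.53% of all host genes were), GRIA1, an AMPA receptor subunit, with 4, 6 and 4 reads and then 1, 0 and 0, and STMN2, a growth cone protein, with 0, 3 and 2 and then 0, 0 and 0. RIMS2, a presynaptic protein and the most abundant of them, had 21, 35 and 50 reads and then 40, 87 and 47. Mesenchymal and matrix genes summed to 1.34 to 1.63 RPM on day 45 and 0.929 to 1.23 on day 90, without overlap. VCAN, high in day 45 replicate 1, is on that list, and the separation depends on it. Its circVCAN:E8-E8 gave 89 of the 172 reads of the list in that library. The median log2 change of the 12 list genes tested was -0.22, beside -0.14 over all host genes. Pigment epithelium genes summed to 0.116 ± 0.0920 and 0.175 ± 0.0455 RPM, with 0 of 5 passing and RPE65 and MITF at 0.

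Several lists had few back-splice reads. Eye field and progenitor genes had reads in 3 of 20 genes, with PAX6 and RAX at 0. Glial genes had reads in 4 of 16, pluripotency genes in 5 of 18, with POU5F1 and NANOG at 0, lens genes in 2 of 18 and endothelial and blood genes in 2 of 16. Their summed levels stayed at or below 0.0831 RPM in each of the 6 libraries.

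**Figure D3:**
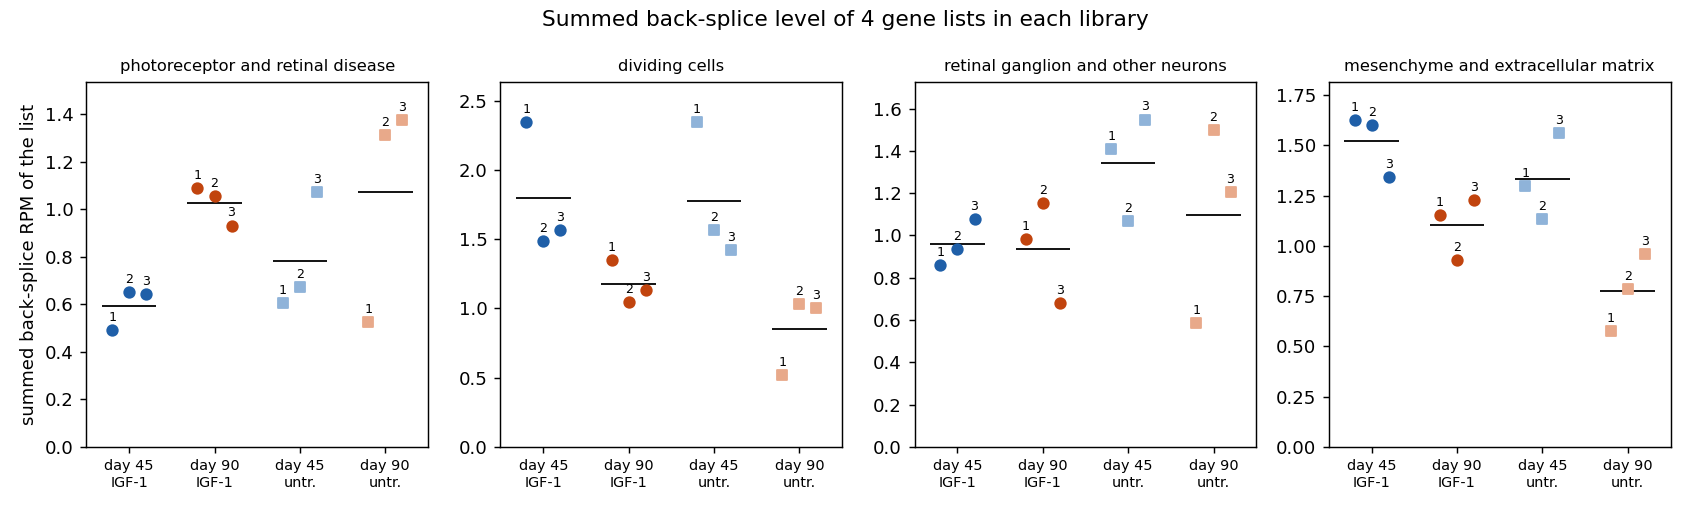
Summed back-splice RPM (y axis, from 0) of 4 gene lists in each library of day 45 and day 90, with IGF-1 (circles) and untreated (squares), with the replicate number beside each point and bars at the mean of 3. With IGF-1 the photoreceptor list lies higher and the dividing cell and mesenchymal lists lower on day 90, without overlap, and the neuronal list overlaps. The separation of the mesenchymal list depends on VCAN reads in day 45 replicate 1.

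The pathway of the added factor was described as a group. The insulin and IGF-1 signalling list summed to 7.54 ± 0.666 RPM on day 45 and 7.14 ± 1.38 on day 90, and 0 of 39 tested genes passed. At an unadjusted p under 0.05, 3 were lower and 0 higher, beside 2.53% and 1.72% of all host genes, and the median log2 change was -0.13, beside -0.14. Libraries did not overlap for 5 lower and 2 higher members, beside 6.57% and 3.2% of all host genes. RPS6KB1, a kinase of ribosomal protein S6 and 1 of the higher members, had 2, 4 and 1 reads and then 4, 6 and 5. IGF1R, the receptor itself, had 10, 22 and 19 reads on day 45 and 38, 10 and 21 on day 90 (log2 0.30, SE 0.47). PHLPP1, a protein phosphatase, had 43, 11 and 16 and then 8, 5 and 11, without overlap (log2 -1.80, SE 0.54, adjusted p = 0.350; -0.81 without day 45 replicate 1). IGF2BP1, an RNA-binding protein of the fetal type, had 19, 17 and 22 and then 7, 8 and 14, also without overlap (log2 -1.19, SE 0.53).

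The other 8 pathway lists had median log2 changes between -0.19 and -0.08, beside -0.14 over all host genes, and 0 genes passed in any of them. Their counts at an unadjusted p under 0.05 stand beside 1.72% higher and 2.53% lower over all host genes. For factors of circRNA formation and splicing, 0 were higher and 1 lower of 37 at an unadjusted p under 0.05. That one was ADARB1, an RNA-editing enzyme, with 54, 82 and 119 reads and then 68, 52 and 30. For the cilium and centrosome list, 1 of 52 was higher and 1 lower. The higher one was DNAH7, an axonemal dynein, with 2, 12 and 15 reads and then 38, 17 and 16. Ion channels and synaptic receptors gave 4 higher and 3 lower of 30. Wnt, Notch, Hedgehog, FGF and TGF-beta signalling gave 3 higher and 0 lower of 30, and axon guidance gave 2 each of 43. Ubiquitin ligases and deubiquitinases gave 1 each of 69, and for 10 of the 69 the libraries lay lower on day 90 without overlap, beside 6.57% of host genes.

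Among circRNAs of at least 30 reads whose libraries did not overlap, the leading higher one after circMB:E2-E2 was circTBC1D30:E11-E10, with 0, 3 and 0 reads and then 10, 8 and 15 (log2 3.14, SE 0.87, adjusted p = 0.445). Its host gene TBC1D30 passed without day 45 replicate 2, the only library of that day with reads (log2 6.40, adjusted p = 0.0432). TBC1D30 passed in no other fit that left out 1 library, and the log2 change ran from 2.56 to 6.40 in these fits. Over all circRNAs tested, 3.1% lay higher and 5.92% lower on day 90 without overlap. Among the 2762 with at least 30 reads these shares were 3.01% and 7.64%, and 3.29% had an unadjusted p under 0.05. Among the 2452 host genes with at least 30 reads, 2.73% lay higher and 7.5% lower without overlap, and 3.51% had an unadjusted p under 0.05. circRAPGEF5:E5-E2, from a guanine nucleotide exchange factor gene, had 2, 15 and 15 and then 37, 47 and 34 (log2 1.72, SE 0.48, adjusted p = 0.503). Its host gene had 5, 35 and 24 and then 62, 77 and 54 (log2 1.44, SE 0.42, adjusted p = 0.278), and passed where libraries were scaled by TMM (adjusted p = 0.00587). Without day 45 replicate 1 the log2 change of the gene was 1.04 with an adjusted p of 1.

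On the lower side, circHMGCS1:E9-E4, from a cholesterol synthesis gene, had 11, 20 and 11 reads and then 1, 8 and 3 (log2 -1.98, SE 0.64). circFAT3:E1-E1, from an atypical cadherin of retinal neurons, had 136, 223 and 225 and then 93, 132 and 91 (log2 -1.07, SE 0.40), so the lowest library of day 45 lay above the highest of day 90 in RPM. FAT3 as a host gene fell short of the threshold as well (adjusted p = 0.634), as did CDON, a cell surface receptor that binds Hedgehog, with 28, 55 and 55 and then 23, 18 and 24 (adjusted p = 0.636). KIF15, a mitotic kinesin, had 24, 30 and 22 and then 10, 14 and 10 (adjusted p = 0.718).

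The most abundant circRNAs overlapped between the days. circRMST:E12-E6, from a long non-coding RNA of neural differentiation, had 1581, 2377 and 2226 reads on day 45 and 1812, 2106 and 2453 on day 90 (log2 change -0.14, 95% interval -0.89 to 0.61). circSMARCA5:E16-E15, from a chromatin remodeller, had 933, 1370 and 1275 and then 1327, 874 and 1293 (95% interval -0.95 to 0.55). circMAN1A2:E5-E2, from a Golgi mannosidase, had 669, 981 and 1028 and then 1087, 854 and 872 (95% interval -0.84 to 0.66). circHIPK3:E2-E2, from a kinase gene, had 256, 584 and 501 and then 535, 566 and 615 (95% interval -0.55 to 0.95). circMSANTD3-TMEFF1:E5-E2, assigned to a read-through gene that shares exons with TMEFF1, had 400, 650 and 821 and then 608, 622 and 416 (95% interval -1.09 to 0.41).

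The choice among circRNAs of the same gene was tested as well. Of 2396 host genes with at least 2 tested circRNAs, 0 passed in edgeR's test of differential use, and 67 had an unadjusted p under 0.05, which is 2.80%. In RMST, circRMST:E12-E6 gave 12555 of 12882 reads and circRMST:E10-E6 250.

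The change from day 45 to day 90 was last compared between the arms. For 0 of 12498 circRNAs did it differ at an adjusted p under 0.05 in edgeR's interaction test (smallest adjusted p = 0.0735), and 603 had an unadjusted p under 0.05, of which 501 were higher with IGF-1 and 102 lower. For host genes it was 0 of 4933 (smallest adjusted p = 0.0587), with 193 higher and 24 lower at an unadjusted p under 0.05. The median difference over all features was 0.50 for circRNAs and 0.52 for host genes (log2), so values of single genes are read against that shift, which was 0.10 for circRNAs with TMM scaling. The total back-splice level of untreated day 90 was 0.649 of that of untreated day 45 (exact permutation test, p = 0.2), beside 0.927 with IGF-1. The untreated days overlapped, at 984, 649 and 609 RPM on day 45 and 309, 535 and 610 on day 90, with replicate 1 furthest apart. The day 45 to day 90 changes of FMN1, RAPGEF5, EYS and ANO2 in untreated cultures were 2.55, 1.90, 3.34 and 3.70 on the log2 scale, in the same direction as with IGF-1. TBC1D30 ran opposite, at 0, 3 and 0 reads and then 10, 8 and 15 with IGF-1 and at 14, 6 and 9 and then 5, 5 and 3 without (edgeR, unadjusted p = 0.000121, adjusted p = 0.1497). SHANK2, a postsynaptic scaffold, had 0, 3 and 0 and then 24, 1 and 0 with IGF-1, where 1 library held the reads, and 54, 0 and 5 and then 9, 0 and 19 without (adjusted p = 0.133).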

How the data were processed

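The authors sequenced ribosome-depleted RNA, screened the reads with PTESFinder for back-splice junctions within GENCODE transcripts on hg19, and deposited raw back-splice read counts per circRNA and library, with replicates kept apart. Library letters a, b and c were read as replicates 1, 2 and 3. Here circRNAs were assigned to genes with GENCODE 44 lifted to GRCh37 (48401 by transcript, 6744 by exon ends, 187 with several genes and 39 with none left out of host gene sums). Counts of all 15 libraries were fitted together in edgeR 4.0.16 (glmQLFit, glmQLFTest, diffSpliceDGE) with 1 mean per group, the study's sequenced read totals as library sizes and a minimum of 10 summed counts. Because the fit includes all groups, they share 1 estimate of the spread. For untreated day 90 replicates 1 and 2, whose read totals could not be told apart, the mean was used. P-values were adjusted by Benjamini-Hochberg over all features tested. Values per library were compared by two-sided exact permutation tests. Alternatives included TMM and DESeq2 1.42.0 size factors, DESeq2's Wald test, other filters and leaving out each library. The fits were also run on simulated counts. That simulation had no library standing apart and no effect shared by same-numbered libraries, so it does not bear on calls that hang on either. Deviations of same-numbered libraries of both arms correlated at 0.40, 0.23 and 0.18 on day 45 and at 0.042, 0.19 and 0.15 on day 90. Other-numbered pairs ran from -0.32 to 0.19 on day 45 and from -0.22 to 0.080 on day 90. The difference between arms was therefore refitted with a replicate block within each day, chosen after seeing the data. That refit called 0 circRNAs and 0 host genes. Depth was 60537 to 93156 back-splice reads in the 6 libraries, and intervals and floors cover counting error or library spread only, since reads carry no molecular identifiers.

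The named genes were the 5 most abundant circRNAs and host genes, all calls, the 10 of smallest p in each direction with at least 30 reads and no overlap, the leading 3 by count and 2 by p of each list, and RMST and FIRRE. Not all of these are printed. CERKL, CRB1, IMPG2, RPGR, TOP2A, IGF1R, WASF1, FOXN3, PDC and RPS6KB1 fall outside the rule and were chosen after their values were seen, and so were the list medians without day 45 replicate 1. The members and gene lists were chosen with earlier results of these data known. Linear RNA was not used here. Some items are not reported here, though counts, medians and sums over lists and over all genes include them.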

Additional observations from a re-analysis of the deposited data

How the results depend on the processing

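Without 1 library the log2 change of ZFPM2 ran from -3.13 to 0.13 and that of circZFPM2:E3-E2 from -3.09 to 0.30, reversed without day 45 replicate 1. Called circRNAs, 2 as reported, numbered 7 with TMM, 7 with DESeq2 size factors, 1 with no filter, 0 with at least 50 counts, 4 with only the 6 libraries, 0 with a term for base quality, 0 with DESeq2's Wald test, 126 with Fisher's exact test on summed counts, which takes no account of replicate spread, and 0 to 4 without 1 library (1 without day 45 replicate 1 or day 90 replicate 3, 4 without day 45 replicate 2 or 3, 0 without day 90 replicate 1 or 2). Called host genes, 4 as reported, numbered 4 with TMM (all higher, RAPGEF5 in place of ZFPM2), 1 with at least 50 counts, 10 with only the 6 libraries, 2 with the quality term, 0 with DESeq2's Wald test, 210 with Fisher's exact test and 1 to 7 without 1 library (1 without day 45 replicate 1, 7 without day 45 replicate 2). TMM moved the median log2 change of host genes from -0.14 to 0.01. The difference between arms gave 1 circRNA with DESeq2 size factors, 1 with the quality term and 0 to 5 without 1 library (5 without day 45 replicate 2). Use within genes gave 0 under each setting. The replicate block gave 0 circRNAs, 3 host genes and 0 for the other 2 tests. Between day 45 and day 90 with IGF-1, deviations of same-numbered libraries correlated at 0.0032, -0.14 and -0.082. Deviations from a mean of 3 libraries depend on one another, so these values cannot exclude that the numbers pair these days. The back-splice ratio was 1.04 with raw totals and 0.851 to 1.01 without 1 library. Without 1 library the differences (day 90 minus day 45) were -279 to 265 distinct circRNAs, 311 to 750.2 bases of span, 0.0180 to 0.126 exons, -0.172 to 0.213 percentage points of non-coding reads (0.0316 by distinct circRNAs) and -0.501 to 0.0074 points of the top 100 share. The causes were not tested. Of 530 refits of 53 named items, 488 kept direction and call, 21 lost the call, 19 gained it and 2 reversed. Most of the 53 items had not passed, and such an item counts as kept while it stays so. Only the 2 circRNAs and 4 host genes that had passed could lose the call, so all 21 losses fell on them. The 2 reversals were ZFPM2 and circZFPM2:E3-E2. The 488 is therefore not a measure of how stable the calls were.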
